A study of Mus musculus with 10 samples.

Results

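The genes described here fold, translocate and degrade proteins at the endoplasmic reticulum (ER) or sense stress there, and they number 39 of 45882 gene IDs. They were chosen by function, not by level, but with earlier results of these data known. Each is the sum of the FPKM (fragments per kilobase of transcript, scaled to all mapped fragments) of all transcripts of its gene ID. They fall into 15 chaperones and foldases, 7 genes of ER-associated degradation, 5 stress sensors and 12 genes of translocation into the ER. A mean level of at least 1 FPKM was required for testing, and 38 of the 39 genes passed. The remaining gene, Derl3, a channel component of degradation, was listed at 0 to 0.139 FPKM in the 10 libraries.

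Secreted and membrane proteins enter the ER through the Sec61 channel, lose their signal peptide, receive glycans and fold with the help of chaperones and disulfide isomerases. Proteins that fail to fold are returned to the cytosol and degraded. When unfolded proteins build up, the sensors ATF6, IRE1 and PERK start the unfolded protein response: cleaved ATF6 and spliced XBP1 raise transcription of chaperone and degradation genes, while PERK lowers translation and favours ATF4. In cardiac myocytes the ER is continuous with the sarcoplasmic reticulum, the calcium store for contraction, and the ER lectin calreticulin also binds calcium.

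Left ventricular cardiac myocytes were isolated from C57BL/6 mice for RNA. The groups were CTCF knockout mice (4 libraries), mice with transverse aortic constriction (TAC), in which a band around the aorta makes the ventricle pump against high pressure (3 libraries), and control mice (3 libraries). The labels give the genotype field of the last group as control and carry no genotype for the TAC mice. The promoter driving any Cre and the ages of the mice were not given in the sources used here. Each library has a mouse number of its own.

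Ctcf, the targeted gene, lay at 2.90, 4.01, 2.60 and 4.42 FPKM in the knockout libraries, at 7.32, 5.70 and 5.22 FPKM in the TAC libraries and at 8.81, 8.34 and 6.80 FPKM in the controls. The knockout libraries lay below all others, with a mean of 43.6% of the control mean. Xist and Y-linked genes marked 3 female and 1 male mice in the knockout group, 1 female and 2 male mice in the TAC group and 2 female and 1 male mice among the controls. The files hold no read counts. The labels state an average of about 50000000 read pairs per library, and coverage per FPKM, a relative measure of depth, ran from 3.90 to 6.09. Summed myocyte markers, among them Myh6 and Tnnt2, lay at 27220 to 35670 FPKM in knockout, 28950 to 37030 FPKM in TAC and 33190 to 37150 FPKM in control libraries, sums set by a few very abundant genes. Of the 8 myocyte markers, Myh6 (-0.53), Tnni3 (-0.56) and Ryr2 (-1.18) were called lower and Actn2 (0.47) higher in the knockout (log2 fold changes), and in TAC Tnni3 (-0.53) was called lower and Actn2 (0.72) higher. Fibroblast markers summed to 198 to 319 FPKM in knockout, 247 to 272 FPKM in TAC and 109 to 199 FPKM in control libraries, with 5 of 9 tested markers called higher in the knockout and 4 of 9 in TAC. Endothelial markers summed to 140.4 to 221 FPKM in knockout, 182 to 219 FPKM in TAC and 138 to 196 FPKM in control libraries, and macrophage and leukocyte markers to 69.1 to 115 FPKM in knockout, 94.3 to 111 FPKM in TAC and 61.2 to 84.5 FPKM in control libraries. Of 9 endothelial markers Vwf and Emcn were called higher in the knockout. All 8 tested macrophage and leukocyte markers had positive log2 fold changes in both comparisons, with Adgre1 and Ctss called higher in the knockout and Ctss in TAC. Smooth muscle and pericyte markers summed to 42.2 to 58.6 FPKM in knockout, 46.4 to 60.3 FPKM in TAC and 48.5 to 73.4 FPKM in control libraries. Markers of lymphocytes and plasma cells summed to 1.61 to 2.89 FPKM in knockout, 1.87 to 3.08 FPKM in TAC and 1.22 to 1.86 FPKM in control libraries, and the plasma cell markers Jchain and Mzb1 reached at most 0.190 and 0.447 FPKM in any library. Erythroid markers summed to 130.0 to 632 FPKM in knockout, 952 to 1676 FPKM in TAC and 288 to 1198 FPKM in control libraries. Liver markers, also of a secretory tissue, summed to 2.08 to 5.96 FPKM in knockout, 3.24 to 5.35 FPKM in TAC and 9.19 to 12.6 FPKM in control libraries. Fgb and Fgg were listed at 0 in all knockout and TAC libraries, Apoa1 in all knockout libraries, and albumin reached at most 0.0219 FPKM in knockout and 0.0516 FPKM in TAC libraries, against at least 3.49 FPKM in controls. The liver transcripts thus set all 3 controls apart from all other libraries. Whether the controls also differed in handling is not given in the sources used here, and such a difference cannot be told apart from the groups in any comparison with control. In bulk RNA, fewer cells of a type and less RNA per cell cannot be told apart.

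Levels below were rescaled between libraries and compared as log2(FPKM + 1) with limma, with p values adjusted over 11358 tested genes, and a gene is said to rise or fall where its adjusted p was under 0.05. The scale understates fold changes of genes with low levels. In CTCF knockout libraries compared with controls, 17 of the 38 tested genes fell and 1, P4hb, rose, beside 10.2% of all tested genes called lower and 10.6% called higher. Their median log2 fold change was -0.23, beside -0.01 over all tested genes. Because the genes were chosen with earlier results known, their counts beside these shares are not an independent test. In TAC libraries compared with controls, 3 genes fell and 1 rose, beside 7.37% of all tested genes called lower and 8.08% called higher, and the median was -0.13, beside -0.00 over all tested genes. Between CTCF knockout and TAC libraries, 2 genes were lower in the knockout and 0 higher, beside 1.7% and 1.58% of all tested genes. With limma at an unadjusted p under 0.05, 0 were higher and 8 lower in the knockout than in TAC. The share of all tested genes at an unadjusted p was not computed. Counts at an unadjusted p, here and below, thus have no background beside them, and the adjusted shares do not serve as one. Every knockout library lay below every control for 20 of the 38 genes and above for 3, beside 1812 and 1685 of 11358 tested genes. For TAC with control these counts were 9 and 3, beside 1779 and 1813. For knockout with TAC they were 12 and 0, beside 1095 and 958. The comparisons with control share the same 3 control libraries, so they are not independent of each other.

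**Figure D1:**
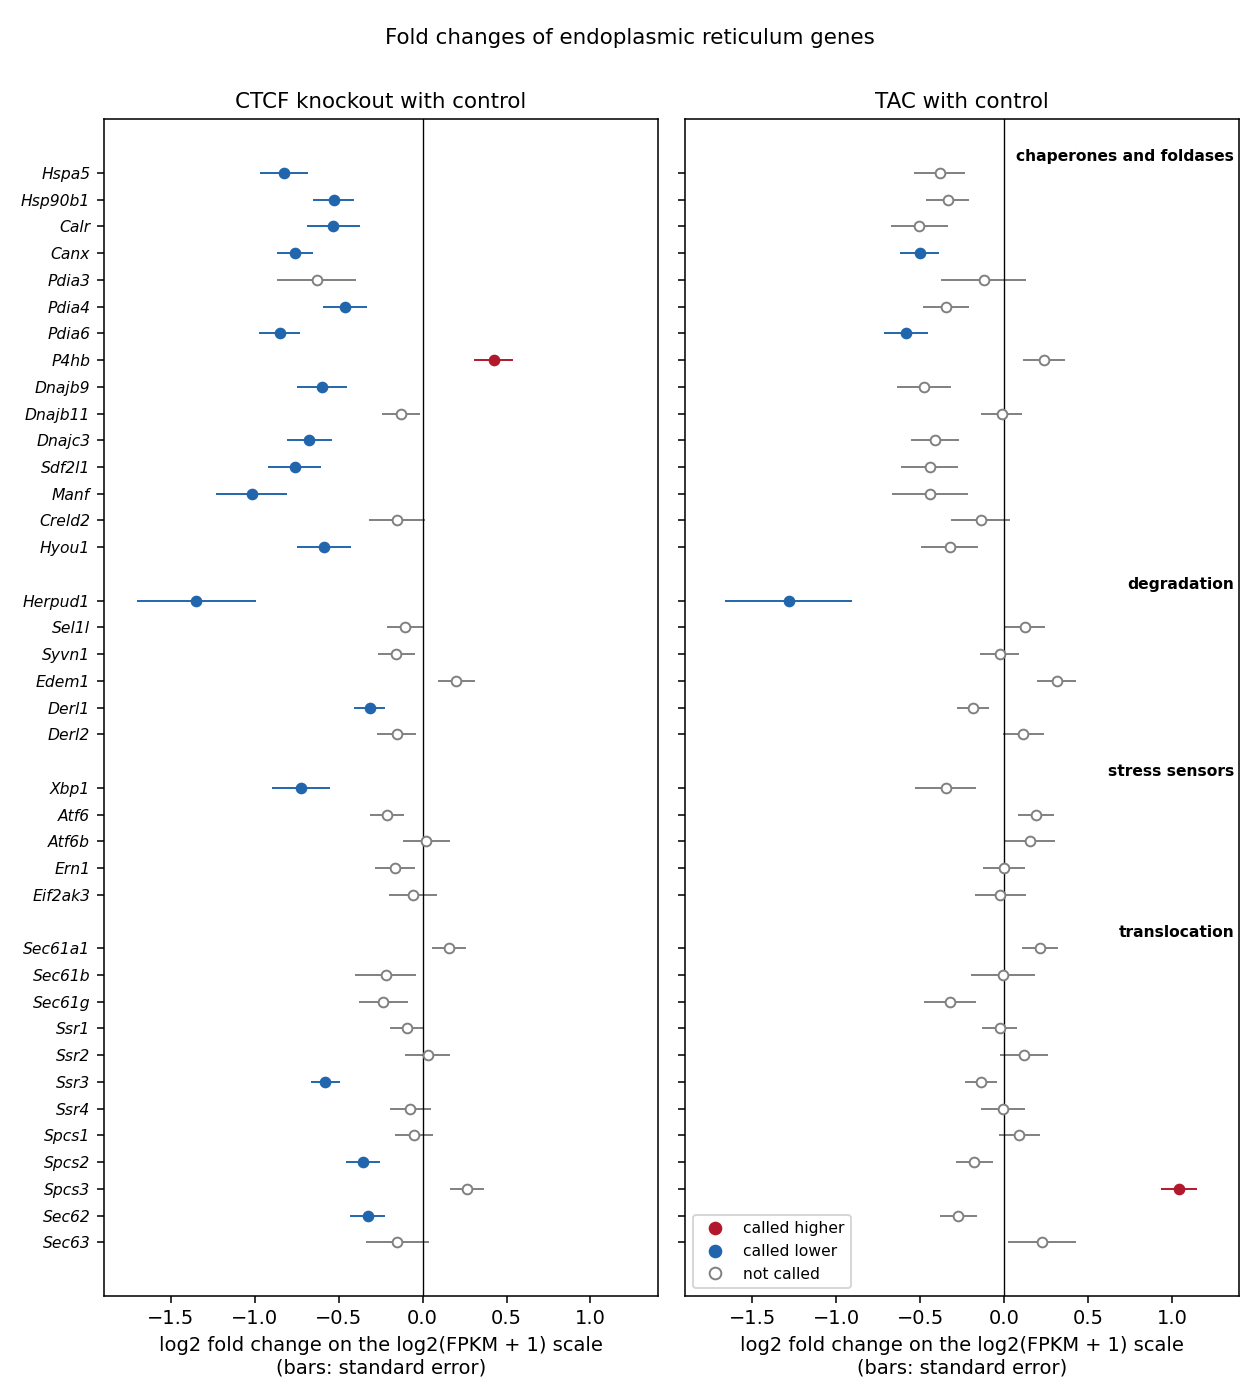
Log2 fold changes (horizontal axis, log2(FPKM + 1) scale, bars are standard errors) of the 38 tested genes by role, for CTCF knockout with control on the left and TAC with control on the right. Filled points passed the test. In the knockout panel 17 points are called lower and P4hb alone is called higher, and in the TAC panel Canx, Pdia6 and Herpud1 are called lower and Spcs3 higher.

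Of the 17 genes that fell in the knockout, 11 were chaperones and foldases. Of the 15 genes of this role, 11 fell, 1 rose and 3 (Pdia3, Dnajb11 and Creld2) did not pass the test, with a median log2 fold change of -0.60. In TAC, 2 of the 15 fell and 0 rose, with a median of -0.38, and by limma at an unadjusted p under 0.05 the counts were 9 lower and 0 higher. Between knockout and TAC, 0 of the 15 passed, with a median of -0.26, and by limma at an unadjusted p under 0.05 the counts were 4 lower and 0 higher. Without the share of all tested genes at an unadjusted p, these unadjusted counts cannot be judged. Control replicate 3 had the highest control level for 14 of the 15, and TAC replicate 2 the highest TAC level for 10 of the 15. Without control replicate 3, 7 of the 15 fell in the knockout, with a median of -0.48, and 10 of all 38 genes fell. Without knockout replicate 2, 8 of the 15 fell and 10 of all 38. In TAC, 5 of the 15 fell without TAC replicate 2, 5 without control replicate 1 and 1 without TAC replicate 3.

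**Figure D2:**
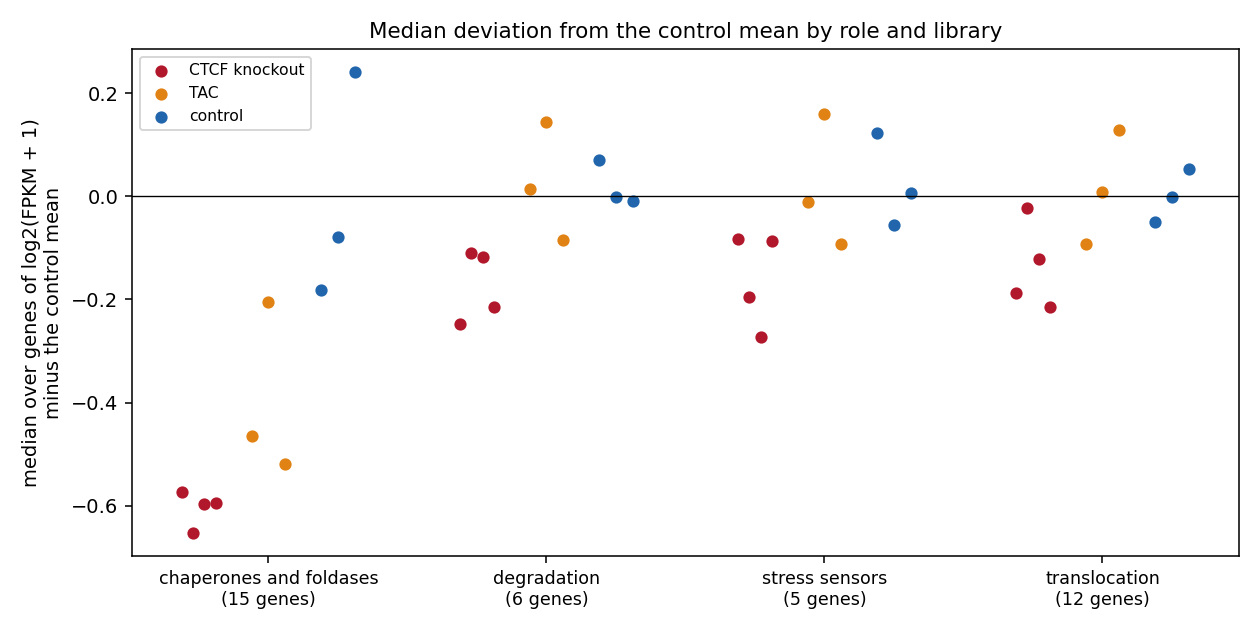
Median over the tested genes of each role of log2(FPKM + 1) minus the control mean (vertical axis), with 1 point per library and the groups ordered CTCF knockout, TAC and control. For chaperones and foldases the 4 knockout libraries lie between -0.65 and -0.57, the TAC libraries between -0.52 and -0.20 and the controls between -0.18 and 0.24.

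Per library, the median chaperone lay 0.57 to 0.65 (log2) below the control mean in all 4 knockout libraries, a span narrower than that of the 3 controls (-0.18, -0.08 and 0.24). The TAC libraries lay at -0.46, -0.20 and -0.52, between the knockout and control libraries. The knockout libraries lay at -0.25 to -0.11 for degradation genes, at -0.27 to -0.08 for sensors and at -0.21 to -0.02 for translocation genes. The TAC libraries spanned 0 in each of these roles.

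Several promoters of these genes carry a known response element. The ER stress element (ERSE), which ATF6 binds together with NF-Y, was searched as CCAAT and CCACG 9 bases apart on either strand of the 250 bases before and 50 bases after each RefSeq gene start (GRCm38.p6). It was present in 37 of 27025 genes with an entry (0.137%) and in 9 of the 32 genes described here that have an entry (28.1%). The element is already known from genes of this kind, so the higher share among them is not a result of these libraries. By role these were 7 of 13 chaperones and foldases, 2 of 6 degradation genes, 0 of 4 sensors and 0 of 9 translocation genes. No promoter entry was found for Atf6, Derl1, Hyou1, Manf, Sec61a1, Spcs3 and Ssr2. The stretches below are shown because they hold the element beside genes that fell in the knockout, with its parts in capitals, 5′ to 3′ on the strand of the gene. The Hspa5 entry is given over all 250 bases before the start, and the others with 15 bases on each side.
Hspa5, chr2:34771840-34772089, plus strand: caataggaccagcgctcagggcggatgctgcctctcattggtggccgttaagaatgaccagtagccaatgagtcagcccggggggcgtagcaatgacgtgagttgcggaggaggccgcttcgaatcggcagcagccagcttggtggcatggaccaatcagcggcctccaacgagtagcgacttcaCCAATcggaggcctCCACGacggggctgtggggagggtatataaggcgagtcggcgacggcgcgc
Hsp90b1, chr10:86705518-86705671, minus strand: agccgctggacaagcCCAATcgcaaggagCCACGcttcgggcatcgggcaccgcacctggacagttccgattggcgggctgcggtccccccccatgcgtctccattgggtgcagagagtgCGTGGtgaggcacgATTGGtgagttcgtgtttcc
Calr, chr8:84847060-84847108, minus strand: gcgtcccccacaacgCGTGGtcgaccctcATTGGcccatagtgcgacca
Canx, chr11:50325785-50325833, minus strand: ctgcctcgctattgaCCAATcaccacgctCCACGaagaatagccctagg
Pdia6, chr12:17266476-17266524, plus strand: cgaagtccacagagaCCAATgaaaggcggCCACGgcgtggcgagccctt
Dnajc3, chr14:118937812-118937860, plus strand: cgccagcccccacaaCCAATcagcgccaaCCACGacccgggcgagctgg
Hsp90b1 holds 2 copies, 212 and 107 bases before the start and on opposite strands, and the copy in Calr is also inverted, which reads as CGTGG and ATTGG. The copies of Hspa5, Pdia6, Dnajc3, Canx and Calr begin 65, 98, 105, 145 and 162 bases before the start. Of the 9 genes with the element, 6 fell in the knockout and 2 fell in TAC (Canx and Pdia6). Creld2 and Syvn1 hold it and did not pass the test in the knockout, and Derl3 holds it but was not tested. Of the 23 genes with an entry and no ERSE, 8 fell in the knockout, among them Dnajb9, Sdf2l1, Pdia4 and Xbp1. Element and role cannot be told apart in these counts, since most genes with the element are chaperones and no sensor or translocation entry holds it. A link between the element and the falls was not tested. The stretches of Creld2 and Syvn1 are given for comparison.
Creld2, chr15:88819505-88819553, plus strand: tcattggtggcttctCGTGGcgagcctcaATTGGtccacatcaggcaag
Syvn1, chr19:6046517-6046565, plus strand: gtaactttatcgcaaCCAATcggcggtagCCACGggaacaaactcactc

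The related element ERSE-II (ATTGG and CCACG 1 base apart) was present in 12 of 27025 genes (0.0444%), among them Herpud1, where it begins 52 bases before the start, and Dnajb11, where it lies 7 bases after it. The Herpud1 stretch is shown because this gene had the largest fall.
Herpud1, chr8:94386362-94386402, plus strand: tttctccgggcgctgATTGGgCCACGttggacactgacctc
The core of the unfolded protein response element (TGACG followed directly by TGG) was present in 193 genes (0.714%) and in 0 of the 32. The entries of Dnajb9, Sdf2l1, Pdia4 and Xbp1, which fell in the knockout, held none of the 3 motifs. The entry of P4hb, the only gene that rose in the knockout, also held none and is printed with no capitals.
P4hb, chr11:120573254-120573503, minus strand: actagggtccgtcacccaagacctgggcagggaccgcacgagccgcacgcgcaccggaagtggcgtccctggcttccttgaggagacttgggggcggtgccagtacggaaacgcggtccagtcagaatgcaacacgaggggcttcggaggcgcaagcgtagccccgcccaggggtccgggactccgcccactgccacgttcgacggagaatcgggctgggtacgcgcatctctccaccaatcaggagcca
A match describes the letters of this window and is not evidence of binding in these cells.

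Hspa5 encodes BiP, the Hsp70 chaperone of the ER lumen that also holds the stress sensors inactive (ENSMUSG00000026864, chromosome 2, 34771970 to 34777547, plus strand, mm10). It lay at 126, 133, 139 and 122 FPKM in the knockout libraries, at 151, 206 and 179 FPKM in the TAC libraries and at 205, 210.0 and 288 FPKM in the controls. All knockout libraries were below all controls and below all TAC libraries, and TAC replicate 2 overlapped the controls. The knockout mean was 55.5% of the control mean, a log2 fold change of -0.83 ± 0.14 (SE, adjusted p = 0.00223). The TAC value was -0.38 ± 0.15 (adjusted p = 0.114), and the direct contrast of knockout with TAC gave -0.44 ± 0.14 (adjusted p = 0.118). With a level above 97.7% of tested genes, Hspa5 was the most abundant of the 39 genes.

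Hsp90b1, the Hsp90 chaperone of the ER (GRP94), held 67.0, 67.8, 66.5 and 62.9 FPKM in knockout, 73.3, 88.6 and 66.5 FPKM in TAC and 86.5, 90.6 and 112 FPKM in control libraries. Every knockout library was below every control, and the fall was 0.53 on the log2 scale (SE 0.12, adjusted p = 0.0102). Of 21 alternatives, only the one without rescaling lost this call (adjusted p = 0.0601). The TAC libraries overlapped both other groups and their difference from control did not pass the test (log2 fold change -0.34, adjusted p = 0.104). An expressed pseudogene, 1810014B01Rik, lies opposite 4598 bases of the Hsp90b1 span at a mean of 1.30 FPKM. The ratio of Hspa5 to Hsp90b1 was 1.97 ± 0.0893 in knockout (SD, n = 4), 2.36 ± 0.318 in TAC and 2.42 ± 0.131 in control libraries (SD, n = 3 each), and it was not tested.

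The lectin chaperones hold newly glycosylated proteins. Canx, calnexin, the membrane-bound lectin, lay at 65.4, 65.1, 62.6 and 68.9 FPKM in knockout, 74.0, 91.6 and 71.2 FPKM in TAC and 116, 101 and 118 FPKM in control libraries. The 3 groups did not overlap. Canx fell in both comparisons, with log2 fold changes of -0.76 ± 0.11 in the knockout (SE, adjusted p = 0.000709) and -0.50 ± 0.12 in TAC (SE, adjusted p = 0.0136). Without TAC replicate 3 the TAC value was -0.43 and missed the threshold (adjusted p = 0.0516). Calr, calreticulin, the soluble lectin and calcium binder, lay at 81.8, 59.1, 73.8 and 69.6 FPKM in knockout, 61.2, 85.7 and 71.0 FPKM in TAC and 86.8, 98.3 and 126 FPKM in control libraries. Knockout and TAC libraries overlapped each other and all lay below the controls. Its fall in the knockout was 0.53 (log2, adjusted p = 0.0343) and did not hold when control replicate 2 or 3, or knockout replicate 2, 3 or 4, was left out (at most adjusted p = 0.132, without control replicate 3, where the value was -0.38). In TAC the difference of -0.50 had an adjusted p of 0.067.

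Among the protein disulfide isomerases, which form and rearrange disulfide bonds, Pdia6 and P4hb moved in opposite directions in the knockout. Pdia6, which binds BiP, lay at 16.1, 13.2, 14.9 and 14.8 FPKM in knockout, 17.2, 20.5 and 16.4 FPKM in TAC and 24.0, 26.3 and 32.5 FPKM in control libraries. The groups did not overlap, and the log2 fold changes were -0.85 ± 0.12 in the knockout (SE, adjusted p = 0.000677) and -0.58 ± 0.13 in TAC (SE, adjusted p = 0.0113). Both calls held under all 21 alternative settings. P4hb, the archetypal disulfide isomerase and the beta subunit of collagen prolyl 4-hydroxylase, lay at 87.5, 84.3, 85.2 and 76.9 FPKM in knockout, 62.5, 76.6 and 82.0 FPKM in TAC and 55.5, 61.8 and 69.1 FPKM in control libraries. All knockout libraries were above all controls, and the rise was 0.42 ± 0.12 (log2, SE, adjusted p = 0.0241). The TAC difference of 0.24 did not pass (adjusted p = 0.223). Fibroblast markers, collagen genes among them, moved in the same direction as P4hb in the knockout (198 to 319 FPKM, against 109 to 199 FPKM in controls), and their part in its rise was not tested. The call did not hold when control replicate 1 or 2, or knockout replicate 1, 2 or 3, was left out (adjusted p up to 0.084). The ratio of P4hb to Pdia6 was 5.21 to 6.37 in knockout, 3.64 to 4.998 in TAC and 2.13 to 2.35 in control libraries.

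Pdia4, an isomerase with an added thioredoxin domain, lay at 7.59, 6.39, 7.37 and 8.01 FPKM in knockout, 8.37, 8.01 and 7.73 FPKM in TAC and 8.69, 9.85 and 13.4 FPKM in control libraries. Control replicate 3 stood highest, all knockout libraries were below all controls, and the log2 fold change was -0.47 (SE 0.13, adjusted p = 0.0272). That call did not hold when control replicate 3 or knockout replicate 2 or 3 was left out (adjusted p up to 0.129 over all alternatives). Pdia3 (ERp57), which works with calnexin and calreticulin, lay at 7.34 to 13.0 FPKM in knockout, 10.8 to 22.5 FPKM in TAC and 13.8 to 18.1 FPKM in control libraries. The highest knockout value was below the lowest control, yet the knockout difference of -0.63 did not pass (SE 0.24, adjusted p = 0.0816).

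Of the J-domain partners of BiP, Dnajb9 and Dnajc3 fell in the knockout and Dnajb11 did not pass. Dnajb9 (ERdj4), which returns BiP to IRE1, lay at 10.4, 9.07, 9.25 and 9.21 FPKM in knockout, 8.57, 13.9 and 9.33 FPKM in TAC and 13.8, 13.5 and 17.6 FPKM in control libraries. It fell by 0.60 in the knockout (log2, adjusted p = 0.0161), a call lost without control replicate 3 (-0.48, adjusted p = 0.0654). TAC replicate 2 alone of the TAC libraries reached the control range. Dnajc3 (p58IPK), an inhibitor of PERK, lay at 6.46, 5.79, 5.25 and 6.35 FPKM in knockout, 7.05, 8.63 and 6.52 FPKM in TAC and 9.35, 8.78 and 12.5 FPKM in control libraries. The groups were ordered without overlap, and the knockout log2 fold change was -0.68 ± 0.13 (SE, adjusted p = 0.00464), against -0.41 in TAC (adjusted p = 0.075). Dnajb11 (ERdj3) lay at 13.1 to 14.5 FPKM in knockout, 13.8 to 16.9 FPKM in TAC and 13.0 to 17.8 FPKM in control libraries, with overlapping groups and log2 fold changes of -0.13 in the knockout and -0.01 in TAC (adjusted p = 0.466 and 0.954).

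Manf, a secreted ER stress protein that stabilises BiP with its clients, lay at 9.62, 8.49, 9.97 and 10.6 FPKM in knockout, 11.5, 16.7 and 17.2 FPKM in TAC and 13.9, 20.6 and 30.0 FPKM in control libraries. The knockout libraries were tight and below all others, while the controls spread widely. Its log2 fold change of -1.02 ± 0.21 in the knockout (SE, adjusted p = 0.00636) was the lowest among the chaperones on the log2(FPKM + 1) scale. By means, the knockout stood at 44.9% of control for Manf and at 44.2% for the less abundant Sdf2l1. The annotated span of Manf overlaps Rbm15b on the same strand and Dcaf1 on the other, so the division of reads is uncertain, and its most abundant transcript alone gave -0.96 (adjusted p = 0.00746). Sdf2l1, a partner of the J-domain proteins, lay at 0.695, 1.33, 1.46 and 1.38 FPKM in knockout, 1.57, 2.18 and 1.51 FPKM in TAC and 2.26, 2.60 and 3.40 FPKM in control libraries. The groups did not overlap, and it fell by 0.76 in the knockout (log2, SE 0.16, adjusted p = 0.00656). Hyou1 (GRP170), the nucleotide exchange factor of BiP, lay at 7.50, 8.06, 8.37 and 8.32 FPKM in knockout, 10.8, 11.6 and 7.70 FPKM in TAC and 10.7, 11.2 and 16.7 FPKM in control libraries. It fell by 0.59 in the knockout (adjusted p = 0.0231), but its most abundant transcript alone gave -0.33 (adjusted p = 0.326), and the call was lost without control replicate 3 (-0.40, adjusted p = 0.0825) or knockout replicate 1 or 2. Creld2, a disulfide isomerase induced by ER stress, lay at 3.87 to 5.20 FPKM in knockout, 4.48 to 4.76 FPKM in TAC and 3.57 to 7.12 FPKM in control libraries and did not pass in either comparison.

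**Figure D3:**
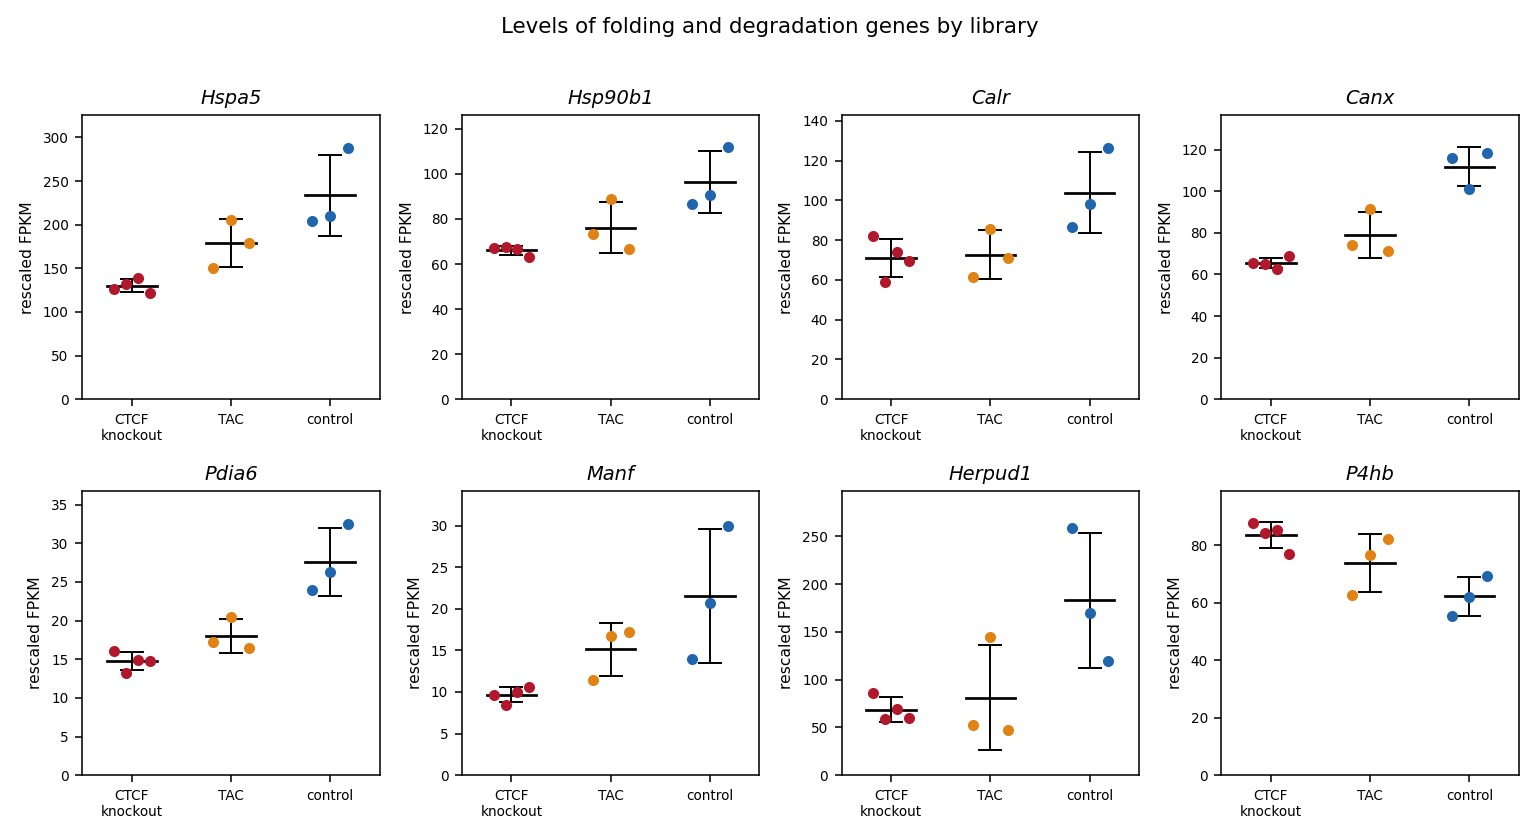
Rescaled FPKM (vertical axis from 0) of 8 folding and degradation genes in each library, with CTCF knockout, TAC and control from left to right, and the mean and SD of each group as bars. Hspa5, Hsp90b1, Calr, Canx, Pdia6, Manf and Herpud1 show all 4 knockout points below all 3 controls, and P4hb shows them above.

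Of the degradation genes, Herpud1 fell in both comparisons and Derl1 in the knockout, while Sel1l, Syvn1, Edem1 and Derl2 did not pass in either. The median log2 fold change of the 6 tested genes was -0.16 in the knockout and 0.04 in TAC. Herpud1 (HERP), a membrane protein that recruits the degradation complex, lay at 86.5, 59.2, 68.9 and 59.8 FPKM in knockout, 52.8, 144 and 46.8 FPKM in TAC and 259, 170.2 and 120.0 FPKM in control libraries. All knockout libraries were below all controls, whereas TAC replicate 2 lay within the control range and the other 2 TAC libraries below it. Its log2 fold changes were -1.35 ± 0.35 in the knockout (SE, adjusted p = 0.0198) and -1.28 ± 0.38 in TAC (SE, adjusted p = 0.0408). In contrast to the chaperones, control replicate 1 was the highest control. In TAC it missed the threshold in 10 of 21 alternatives, including those that left out TAC replicate 1 or 3 (adjusted p = 0.132 and 0.141) and sex as a covariate (0.0679), and the value without TAC replicate 2 was -1.79. In the knockout it missed the threshold when control replicate 1 or 2, or knockout replicate 2, was left out (adjusted p up to 0.0778 over all alternatives).

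Derl1, derlin 1, which passes substrates through the membrane, lay at 14.9, 14.6, 15.5 and 12.9 FPKM in knockout, 14.8, 16.7 and 16.2 FPKM in TAC and 17.9, 18.7 and 18.2 FPKM in control libraries. The controls lay above all other libraries, and the knockout fall of 0.32 (log2, adjusted p = 0.0289) was lost in 8 of 21 alternatives, 6 of them leaving out a control or knockout library. Sel1l, the adaptor of the central degradation complex, lay at 12.2 to 14.8 FPKM in knockout, 14.8 to 18.1 FPKM in TAC and 13.0 to 16.1 FPKM in control libraries. Syvn1 (HRD1), its ubiquitin ligase, lay at 2.83 to 3.17 FPKM in knockout, 2.69 to 3.90 FPKM in TAC and 3.32 to 3.66 FPKM in control libraries. Their knockout log2 fold changes were -0.10 and -0.16 (adjusted p = 0.549 and 0.35). Edem1, which directs misfolded glycoproteins to degradation by mannose trimming, was higher in every knockout (1.41 to 1.70 FPKM) and TAC library (1.64 to 2.16 FPKM) than in the controls (1.08 to 1.39 FPKM), with adjusted p of 0.226 and 0.0958. Derl2 lay at 10.4 to 12.7 FPKM in knockout, 12.5 to 16.5 FPKM in TAC and 12.0 to 14.3 FPKM in control libraries.

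Of the stress sensors, Xbp1 fell in the knockout and the others did not pass in either comparison. The median log2 fold change of the 5 was -0.16 in the knockout and -0.00 in TAC, where 0 passed by limma at an unadjusted p under 0.05 too. Xbp1, the transcription factor made active by IRE1 splicing and itself raised by ATF6, lay at 12.3, 12.4, 11.4 and 9.88 FPKM in knockout, 13.8, 16.6 and 15.2 FPKM in TAC and 14.5, 18.8 and 27.4 FPKM in control libraries. The knockout libraries were below all others, and the TAC libraries overlapped the controls. The knockout log2 fold change was -0.72 ± 0.17 (SE, adjusted p = 0.0123), and that of TAC was -0.35 (adjusted p = 0.229). Without control replicate 3 the knockout value was -0.49 (adjusted p = 0.0327). The files list 4 Xbp1 transcripts, of which 1 of 2129 nt held 78.4% to 85.2% of the gene's FPKM in knockout, 78.2% to 86.5% in TAC and 87.1% to 91.1% in control libraries. None of the 4 lacks the short segment that IRE1 removes, so splicing was not analysed here.

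Atf6, the sensor that is cleaved in the Golgi to become a transcription factor, lay at 23.6, 25.1, 23.7 and 26.9 FPKM in knockout, 30.8, 36.1 and 32.6 FPKM in TAC and 32.9, 27.1 and 27.0 FPKM in control libraries. Its knockout libraries lay below all others, but neither the difference from control (-0.21, adjusted p = 0.173) nor that from TAC (-0.40 ± 0.10, adjusted p = 0.0572) passed. Ern1 (IRE1), the kinase and nuclease that splices Xbp1, lay at 2.70, 2.18, 2.14 and 2.58 FPKM in knockout, 2.63, 3.25 and 2.56 FPKM in TAC and 3.14, 3.01 and 2.31 FPKM in control libraries, and the groups overlapped. Eif2ak3 (PERK), the kinase that lowers translation, lay at 1.58, 1.57, 1.28 and 2.15 FPKM in knockout, 1.71, 1.66 and 1.69 FPKM in TAC and 2.22, 1.27 and 1.80 FPKM in control libraries, again with overlap. Their knockout log2 fold changes were -0.16 and -0.06 (SE 0.12 and 0.14). Atf6b, the weaker relative of Atf6, lay at 2.40 to 2.59 FPKM in knockout, 2.104 to 3.98 FPKM in TAC and 2.32 to 2.54 FPKM in control libraries.

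**Figure D4:**
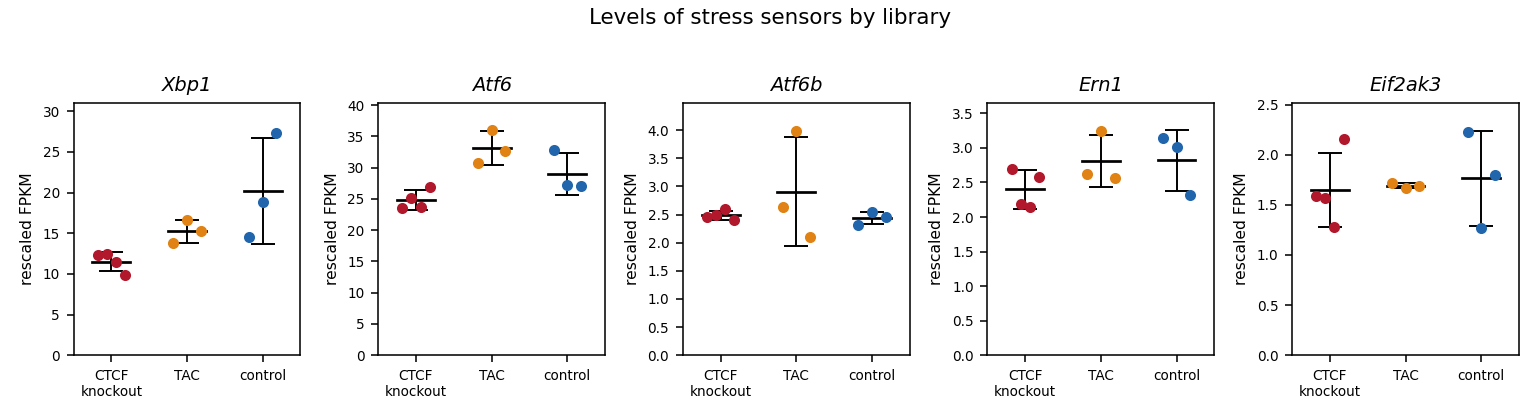
Rescaled FPKM (vertical axis from 0) of the 5 stress sensors in each library, with CTCF knockout, TAC and control from left to right, and the mean and SD of each group as bars. Xbp1 is called lower in the knockout, and the other 4 genes pass in neither comparison with control.

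Of the 12 translocation genes, 3 fell in the knockout (Ssr3, Spcs2 and Sec62) and 1 rose in TAC (Spcs3), with medians of -0.12 and -0.01. Between knockout and TAC, Ssr3 and Spcs3 were lower in the knockout. Each encodes a subunit of a complex whose other subunits in the set did not pass that test. Ssr3, the gamma subunit of the translocon-associated complex that helps chains enter the channel (ENSMUSG00000027828, chromosome 3, 65379655 to 65392623, minus strand), lay at 30.7, 32.9, 31.4 and 32.9 FPKM in knockout, 41.7, 48.1 and 41.8 FPKM in TAC and 46.5, 49.1 and 49.4 FPKM in control libraries. All knockout libraries were below all others, and the TAC range reached into that of the controls. The log2 fold changes were -0.58 ± 0.09 against control (SE, adjusted p = 0.000989) and -0.44 ± 0.09 against TAC (SE, adjusted p = 0.0229), while TAC and control differed by -0.14 (adjusted p = 0.355). The call against TAC was lost without TAC replicate 1 or 2 or knockout replicate 1 or 3 (adjusted p = 0.0503, 0.0965, 0.067 and 0.0718).

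The other subunits Ssr1, Ssr2 and Ssr4 had knockout log2 fold changes of -0.09, 0.03 and -0.08 (adjusted p = 0.54, 0.898 and 0.71). Ssr2 lay at 17.2 to 22.4 FPKM in knockout, 17.9 to 23.1 FPKM in TAC and 15.4 to 20.9 FPKM in control libraries. Ssr4, on the X chromosome, lay at 22.5 to 29.0 FPKM in knockout, 23.3 to 31.7 FPKM in TAC and 26.4 to 28.3 FPKM in control libraries. Ssr1 was the least abundant, at 3.34 to 3.83 FPKM in knockout, 3.39 to 4.07 FPKM in TAC and 3.54 to 4.08 FPKM in control libraries. The level of Ssr3 over the mean of the other 3 subunits was 2.00 ± 0.245 in knockout (SD, n = 4), 2.58 ± 0.252 in TAC and 2.93 ± 0.105 in control libraries (SD, n = 3 each). The knockout ratios of 1.75 to 2.27 did not overlap the TAC ratios of 2.30 to 2.77 or the control ratios of 2.85 to 3.05, and they were not tested.

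Spcs3, the subunit of signal peptidase with most of its mass in the lumen (ENSMUSG00000054408, chromosome 8, 54520433 to 54529998, minus strand), lay at 13.6, 16.5, 15.6 and 15.6 FPKM in knockout, 24.1, 27.3 and 29.8 FPKM in TAC and 12.1, 12.3 and 13.4 FPKM in control libraries. TAC stood above both other groups with no overlap, and the knockout libraries lay above the controls. The mean in TAC was 215% of the control mean, and the log2 fold change of 1.04 ± 0.11 (SE, adjusted p = 0.000188) held its call under all 21 alternatives. Knockout against TAC gave -0.78 ± 0.10 (SE, adjusted p = 0.00344), also held under all 21. Knockout against control gave 0.26 (adjusted p = 0.0935), which passed with quantile normalization or with no rescaling. Erythroid markers summed to 952 to 1676 FPKM in TAC, against 288 to 1198 FPKM in controls, and their part in the Spcs3 value was not tested.

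Spcs2, another signal peptidase subunit, lay at 5.30, 4.79, 4.60 and 4.48 FPKM in knockout, 5.39, 5.69 and 5.58 FPKM in TAC and 6.21, 5.66 and 7.47 FPKM in control libraries. It fell by 0.36 in the knockout (log2, adjusted p = 0.0299), a call that did not hold when control replicate 1 or 3, or knockout replicate 2, 3 or 4, was left out (adjusted p up to 0.173 over all alternatives). Spcs1 lay at 44.0 to 52.1 FPKM in knockout, 44.7 to 58.9 FPKM in TAC and 45.0 to 53.3 FPKM in control libraries, and did not pass. The level of Spcs3 over the mean of Spcs1 and Spcs2 was 0.587 ± 0.081 in knockout (SD, n = 4), 0.926 ± 0.0694 in TAC and 0.45 ± 0.0188 in control libraries (SD, n = 3 each).

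**Figure D5:**
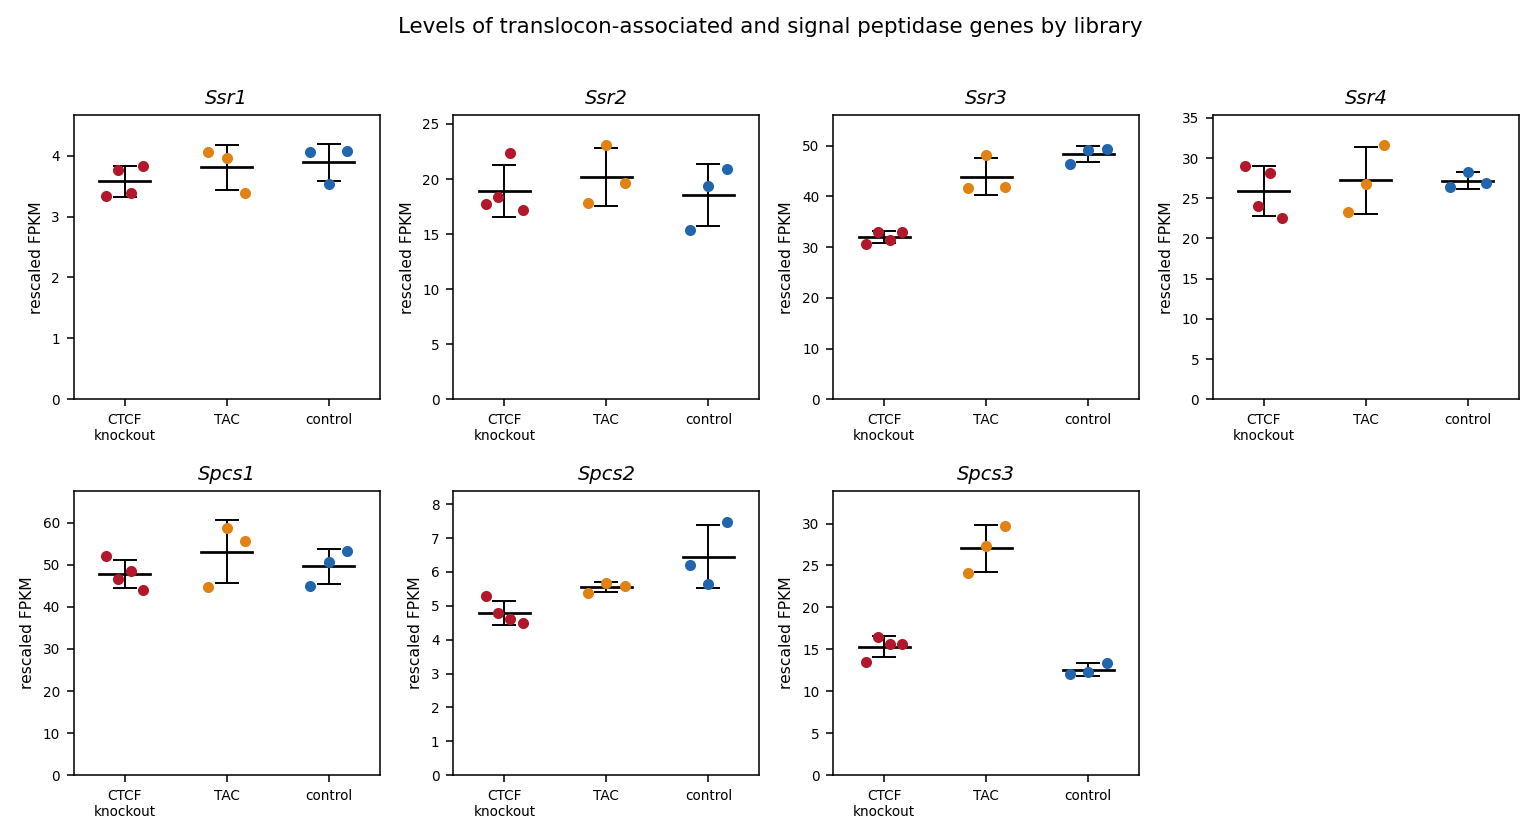
Rescaled FPKM (vertical axis from 0) of the 4 translocon-associated genes and 3 signal peptidase genes in each library, with CTCF knockout, TAC and control from left to right, and the mean and SD of each group as bars. Ssr3 alone of the Ssr genes is lower in the knockout, and Spcs3 stands at 24.1 to 29.8 FPKM in TAC, above all other libraries.

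Sec62, which helps post-translational entry and ER turnover, lay at 12.2, 10.8, 10.01 and 11.6 FPKM in knockout, 11.1, 13.1 and 10.6 FPKM in TAC and 15.5, 13.4 and 13.7 FPKM in control libraries. It fell by 0.33 in the knockout (log2, adjusted p = 0.0453), and this call was lost in 13 of 21 alternatives, including those without control replicate 1, 2 or 3, without knockout replicate 2, 3 or 4 and without TAC replicate 1 (adjusted p up to 0.316 over all alternatives). The pore subunits of the channel did not pass in either comparison. Sec61a1, the pore itself, lay at 10.1 to 11.6 FPKM in knockout, 10.8 to 12.2 FPKM in TAC and 8.36 to 10.7 FPKM in control libraries. Sec61b, the beta subunit, lay at 4.42 to 6.31 FPKM in knockout, 4.99 to 7.77 FPKM in TAC and 5.24 to 8.50 FPKM in control libraries. Sec61g, the gamma subunit, lay at 21.5 to 32.0 FPKM in knockout, 21.3 to 30.8 FPKM in TAC and 31.9 to 32.5 FPKM in control libraries. Sec63, the J-domain protein that brings BiP to the channel, lay at 3.30 to 5.41 FPKM in knockout, 5.64 to 6.34 FPKM in TAC and 3.54 to 6.97 FPKM in control libraries. The transcript with the highest mean was the same in all 3 groups for each of the 39 genes.

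Further lists cover the steps around these genes, and their counts are read beside the same shares of all tested genes. In the knockout, 5 of 12 oligosaccharyltransferase genes, which transfer glycans to asparagine, fell. Magt1, a subunit that also bears on magnesium transport, lay at 6.62, 6.81, 7.40 and 7.43 FPKM in knockout, 9.79, 10.5 and 10.4 FPKM in TAC and 13.9, 14.9 and 17.5 FPKM in control libraries, with no overlap. Its log2 fold changes were -1.02 in the knockout (adjusted p = 6.3e-05), -0.54 in TAC (adjusted p = 0.00571) and -0.48 between knockout and TAC (adjusted p = 0.0247). Its paralog Tusc3 fell in both (-0.52 and -0.57), and Rpn1, which binds the ribosome side of the complex, fell in the knockout (-0.45, adjusted p = 0.0163). Ostc (-0.37) and Krtcap2 (-0.51) fell in the knockout as well. In TAC, 2 of the 12 fell.

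Of 12 genes of glycan trimming and lectins, 1 fell in the knockout, the cargo lectin Lman1 (-0.43, adjusted p = 0.00718), and 0 passed in TAC. By limma at an unadjusted p under 0.05, 1 of the 12 was lower and 0 were higher in TAC. Mogs and Lman2 had knockout log2 fold changes of 0.40 and -0.30 (adjusted p = 0.0674 for both), and Lman2 differed by -0.16 in TAC. Of 22 tested oxidoreductases and prolyl isomerases outside the main set, Tmx3 (-0.44) and Tmx4 (-0.34) fell and Ppic (0.49) rose in the knockout. In TAC, Ero1l, which reoxidises disulfide isomerases, rose with 5.59, 6.98 and 5.87 FPKM against 4.28, 3.68 and 4.003 FPKM in controls (0.52, adjusted p = 0.0121). It was 3.74 to 4.91 FPKM in the knockout and lower there than in TAC (-0.45, adjusted p = 0.048). Txndc5 and Fkbp11 also rose in TAC, and Fkbp10, a collagen chaperone, fell (-0.53, adjusted p = 0.0255).

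Of 17 genes of ubiquitination and extraction in ER degradation, March6 (-0.48, adjusted p = 0.00443) and Rnf139 (-0.29), both membrane ubiquitin ligases, fell in the knockout, and Ubxn4 (0.32) and Nploc4 (0.30), cofactors of the p97 extraction ATPase, rose. In TAC, genes of this list that rose included Ubxn4 (0.38), Ube2g2 (0.50), a ubiquitin-conjugating enzyme, and Nploc4 (0.38). Of 18 genes of the signal recognition particle and membrane insertion, Tram1 (-0.55) and Sec11a (-0.46), the catalytic subunit of signal peptidase, fell in the knockout, and 0 passed in TAC, where limma at an unadjusted p under 0.05 gave 1 higher and 2 lower. Srpr, a subunit of the particle receptor, differed by -0.35 in the knockout and -0.33 in TAC (adjusted p = 0.0516 and 0.098), and Get4 by 0.36 in TAC. Of 9 genes of the ER membrane protein complex, Mmgt1 fell in the knockout (-0.63, adjusted p = 0.000721) and in TAC (-0.37, adjusted p = 0.0239), and Emc1 and Emc10 had values of -0.20 and 0.25 in the knockout and Emc10 of 0.22 in TAC. Of 12 genes of the COPII coat, which carries folded cargo out of the ER, Sar1a (-0.51) and Sar1b (-0.61) fell and Sec24d (0.59) rose in the knockout. In TAC 0 passed, limma at an unadjusted p under 0.05 gave 1 higher and 1 lower, and Sec23b and Sar1a differed by 0.37 and -0.34.

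Genes downstream of PERK and ATF4 were described apart. Of 11 tested, 2 rose in the knockout (Ddit3 and Nupr1) and 1 in TAC (Nupr1), with a median log2 fold change of 0.30 in the knockout and 0.08 in TAC. Ddit3 (CHOP), a transcription factor of prolonged stress, lay at 19.7, 20.1, 17.3 and 16.1 FPKM in knockout, 10.3, 14.1 and 13.1 FPKM in TAC and 12.0, 12.8 and 11.3 FPKM in control libraries. Its knockout libraries lay above all others, with log2 fold changes of 0.56 against control (adjusted p = 0.00708) and 0.52 against TAC (adjusted p = 0.041). Nupr1, a stress-induced chromatin protein, rose in the knockout (0.95, adjusted p = 0.0074) and in TAC (0.77, adjusted p = 0.0347). Sesn2 differed by 0.30 in the knockout (adjusted p = 0.0815), and Ppp1r15b by -0.19 in TAC (adjusted p = 0.337). Atf3, a stress-induced transcription factor, varied most within the controls, at 44.6, 16.6, 18.1 and 19.8 FPKM in knockout, 14.3, 16.8 and 29.2 FPKM in TAC and 1.67, 14.8 and 93.9 FPKM in control libraries, and did not pass in either comparison. It was named after its values were seen.

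Values used as deposited, without rescaling, gave fewer falls in the knockout: 9 of the 38 genes fell and 2, P4hb and Spcs3, rose. This setting moved the median of all tested genes in the knockout comparison to 0.10, against -0.01 with rescaling, and 26.5% of all calls were then lower, against 49.1% with rescaling. In the TAC comparison 33.5% of all calls were then lower, against 47.7% with rescaling, and 3 genes fell and 1 rose in both cases. Between knockout and TAC 36.1% of all calls were then lower, against 51.9%. Without rescaling, Hspa5 (-0.70), Canx (-0.63), Pdia6 (-0.73), Manf (-0.90), Xbp1 (-0.60) and Herpud1 (-1.22) stayed called lower in the knockout. Dnajc3, Sdf2l1 and Ssr3 stayed called lower as well. Hsp90b1, Calr, Pdia4, Dnajb9, Hyou1, Derl1, Spcs2 and Sec62 lost their calls, which left 6 of the 15 chaperones and foldases called lower. Markers of several cell types also differed between knockout and control libraries. Of the tested markers, 5 of 9 fibroblast, 2 of 9 endothelial and 2 of 8 macrophage and leukocyte markers and 1 of 6 smooth muscle and pericyte markers were called higher, 3 of 8 myocyte markers and 1 of 3 liver markers were called lower, and the ranges of their sums are given above. Their part in the lower chaperone levels was not tested.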

How the data were processed

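RNA from isolated left ventricular cardiac myocytes was depleted of ribosomal RNA and sequenced as stranded pairs, per the labels' protocols, while the molecule label names polyA RNA. The authors used TopHat2 2.1.0, Bowtie2, Cufflinks 2.2.1 and Cuffdiff with mm10, per the submitters' processing notes, and how strand was used in counting is not given in the sources used here. The deposited FPKM of 109869 transcripts per library are scaled to transcript length and to mapped fragments. Read counts are not in these files, which leaves depth per library unknown. A deposited score column was not used.

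FPKM were summed to 45882 gene IDs, with symbols from GENCODE M21. Left out were 22 genes at 0 in some libraries whose median over the other libraries was at least 100 FPKM. A further 7765 under 300 nt were left out, which left 38095. Libraries were rescaled by factors of 0.912 to 1.10. Genes with a mean of at least 1 FPKM were tested as log2(FPKM + 1) with limma 3.58.1 in R 4.3.3, with all 10 libraries in one fit and Benjamini-Hochberg adjustment, and the procedure was checked on simulated data. The 39 genes and all lists were chosen with earlier results of these data known. Every gene of the set is named, and those called against control, with Atf6, Ern1 and Eif2ak3, have the value of every library. From each further list up to 3 genes with the smallest adjusted p in the knockout comparison and up to 2 in the TAC comparison are named; called genes named beyond these, with Ero1l and Ddit3 between knockout and TAC, were added after their values were seen. Protein sequences were not used here, and 1 item is not reported here. Alternatives changed rescaling, filter, pseudocount, transcripts, covariates and libraries.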

Additional observations from a re-analysis of the deposited data

Results flagged for a closer look

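Among 38 sets of knockout values, 1 per gene, 2 had a library standing apart by a gap above Dixon's 95% critical share of the group's range, and chance alone flags about 1 in 20 such groups. Dnajb9 in CTCF knockout replicate 1 lay at 10.4 FPKM, above 9.07 to 9.25 FPKM in the other 3 knockout libraries, a gap of 0.859 of the range. Sdf2l1 in the same library lay at 0.695 FPKM, below 1.33 to 1.46 FPKM in the others, a gap of 0.835 of the range. Both values stayed below all controls.

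The direct contrast of CTCF knockout with TAC passed the test for Ssr3, at a log2 difference of -0.44, and for Spcs3, at -0.78. For Ssr3 the knockout libraries stood apart from both TAC and control, and for Spcs3 the TAC libraries stood apart from both knockout and control.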

How the results depend on the processing

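Of the values of called genes recomputed under the alternatives, 423 kept their side of the threshold and 80 lost it, and none of these changed sign. In CTCF knockout with control, 17 genes fell; the count was 9 without rescaling, 11 with a replicate block and 10 to 17 when 1 library was left out. The count that rose was 1, and it was 2 without rescaling, 2 with quantile normalization (Spcs3 added) and 0 to 1 with 1 library left out. In TAC with control, 3 genes fell; the count was 6 with quantile normalization, 1 with only the 2 groups compared in the fit, and 1 to 6 with 1 library left out. The count that rose in TAC stayed at 1 in every alternative run. Between CTCF knockout and TAC, 2 genes were lower, against 1 without rescaling, 1 with the replicate block and 1 to 3 with 1 library left out. A mean of at least 5 FPKM moved the lower share of all calls between knockout and TAC to 64.6%, against 51.9%. Of 9 pairs of same-numbered libraries, 4 correlated above 0.1 (range -0.359 to 0.328). These correlations use deviations from the means of small groups, which are tied to each other. They cannot decide whether same-numbered libraries share a batch. With depth per library unknown, no counting interval can be given, and genes under 3 FPKM such as Ern1, Eif2ak3 and Sdf2l1 rest on the least signal.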
